A study of Mus musculus with 2 samples.

Results

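RNase P and RNase MRP are related ribonucleoprotein enzymes of the nucleus, and 10 of their component genes were read out of 23930 gene targets in cranial suture tissue. The members were taken by gene symbol and are the catalytic RNA of RNase P (Rpph1), the RNA of RNase MRP (Rmrp) and 8 protein subunits (Pop1, Pop4, Pop5, Pop7, Rpp14, Rpp25, Rpp30 and Rpp38). All 10 had a target. The set was chosen by the high CPM of Rpph1 and Rmrp in these libraries, so the distance in level between the RNAs and the proteins is given as a description, without a test. The tissue came from the coronal, sagittal and lambdoid sutures, the fibrous joints of the skull, of wildtype mouse pups at postnatal day 3. It was profiled in 2 libraries, numbered as in their titles, which form 1 group and share batch number 1. There is thus no treated or mutant group to compare with. The labels call the cells suture stem cells, whereas the protocol describes whole tissue and no sort. The 3 highest of the suture progenitor genes by mean were Twist1, at 124 CPM (counts per 1000000 reads of the library) in library 1 and 72.8 CPM in library 2, Gli1, at 32.0 and 64.4 CPM, and Six2, at 18.2 and 75.5 CPM. The muscle gene Mylpf was at 13300 and 5222 CPM, so the libraries are described here as bulk tissue. In such tissue, fewer cells of a type and less RNA per cell cannot be told apart.

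RNase P removes the leader from the front of precursor transfer RNAs, and RNase MRP cuts the precursor of ribosomal RNA. In each enzyme a single structured RNA, made by RNA polymerase III, is wrapped by a set of proteins that the enzymes largely share. In humans, inherited changes in the RNA of RNase MRP cause cartilage-hair hypoplasia, a disorder with short limbs, and changes in POP1 cause a severe skeletal dysplasia, which is why the components are of interest in skeletal tissue.

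Rpph1 and Rmrp are short genes with a single exon, annotated as ribozymes in GENCODE M21 on mm10, and both share sequence with a neighbouring gene. Their RNA sequences (Rpph1 up to base 300), copied from GENCODE M21 transcripts and written as DNA from 5′ to 3′, are shown because these stretches bear on what an amplicon of the panel could read. Capitals mark, in Rpph1, the run that is identical to the start of a Ccnb1ip1 transcript on the same strand, and, in Rmrp, the run that is complementary to the start of a Ccdc107 transcript on the other strand.
Rpph1: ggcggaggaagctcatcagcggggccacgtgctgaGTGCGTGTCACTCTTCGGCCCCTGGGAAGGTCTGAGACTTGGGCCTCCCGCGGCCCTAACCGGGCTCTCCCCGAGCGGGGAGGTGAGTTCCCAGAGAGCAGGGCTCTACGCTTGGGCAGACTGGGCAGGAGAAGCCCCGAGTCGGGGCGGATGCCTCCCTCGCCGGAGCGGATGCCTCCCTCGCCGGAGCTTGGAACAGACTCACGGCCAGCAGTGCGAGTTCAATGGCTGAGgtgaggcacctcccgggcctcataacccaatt
Rmrp: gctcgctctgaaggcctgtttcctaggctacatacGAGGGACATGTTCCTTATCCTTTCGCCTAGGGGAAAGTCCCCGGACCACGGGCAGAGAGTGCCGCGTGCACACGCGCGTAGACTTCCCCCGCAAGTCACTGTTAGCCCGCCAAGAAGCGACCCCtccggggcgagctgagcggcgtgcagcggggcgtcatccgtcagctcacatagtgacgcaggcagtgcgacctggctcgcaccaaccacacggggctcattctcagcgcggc

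The Rpph1 gene is 319 bases long and lies on the minus strand of mm10 chromosome 14 from 50807449 to 50807767. The capitals run from base 36 to base 268, which is 233 bases or 73.0% of the RNA. Ccnb1ip1, whose annotated gene overlaps Rpph1 by 284 bases, had 0 reads in both libraries. Its exact 95% Poisson interval, which covers counting error only, reached 0.651 CPM in the shallower library 1 and 0.233 CPM in library 2. On the other side, Parp2, a DNA repair enzyme gene, starts 73 bases from Rpph1 and points away from it. Parp2 stood at 7.95 CPM in library 1 against 8.61 CPM in library 2. The targets of Ccnb1ip1 and Parp2 were thus read far less than that of Rpph1. Where the amplicons lie is not given, so reads of the stretch identical in Ccnb1ip1 and Rpph1 cannot be assigned to either gene. Parp2 did not differ detectably between the libraries (adjusted p = 0.971 in the exact binomial test described below). Inside Rpph1, a run of 21 bases (GCGGATGCCTCCCTCGCCGGA) starts at base 182 and is repeated directly after itself at base 203.

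The sequence of Rpph1 also resembled that of annotated copies elsewhere in the genome. In a search of all GENCODE M21 transcripts, 18 other genes annotated as ribozymes matched Rpph1, the closest at 86.0% identity. The panel held targets of its own for the copies Rprl1 and Rprl2, which matched at 83.7% and 85.6%. Rprl1 had 4 reads (0.706 CPM) in library 1 and 7 reads (0.443 CPM) in library 2. Rprl2 had 1 read (0.177 CPM) and 2 reads (0.127 CPM). These 2 copies therefore had 7 reads or fewer per library, while Rpph1 had 117083 reads in library 1 and 637161 in library 2. No target carried the symbol of another copy annotated as a ribozyme, the closest included. The labels and the table do not say where in a gene the amplicon lies, so reads of other copies in the Rpph1 target cannot be told apart.

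The Rmrp gene is 271 bases long and lies on the minus strand of chromosome 4 from 43492788 to 43493058. Its capitals run from base 36 to base 159, which is 124 bases or 45.8% of the RNA. Ccdc107, a protein-coding gene on the plus strand, overlaps the Rmrp gene by 159 bases and was read at 30.2 CPM in library 1 and 20.9 CPM in library 2. It was higher in library 1 (adjusted p = 0.000574, exact binomial test), opposite to Rmrp. They do not say either whether reads were counted by strand, so reads of the shared stretch cannot be assigned to a strand. In the same search no transcript of a gene other than Ccdc107 and Rmrp itself matched Rmrp. The longest run that Rpph1 and Rmrp had in common was 9 bases (CAGCGGGGC), so their amplicons do not share a long sequence.

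**Figure D1:**
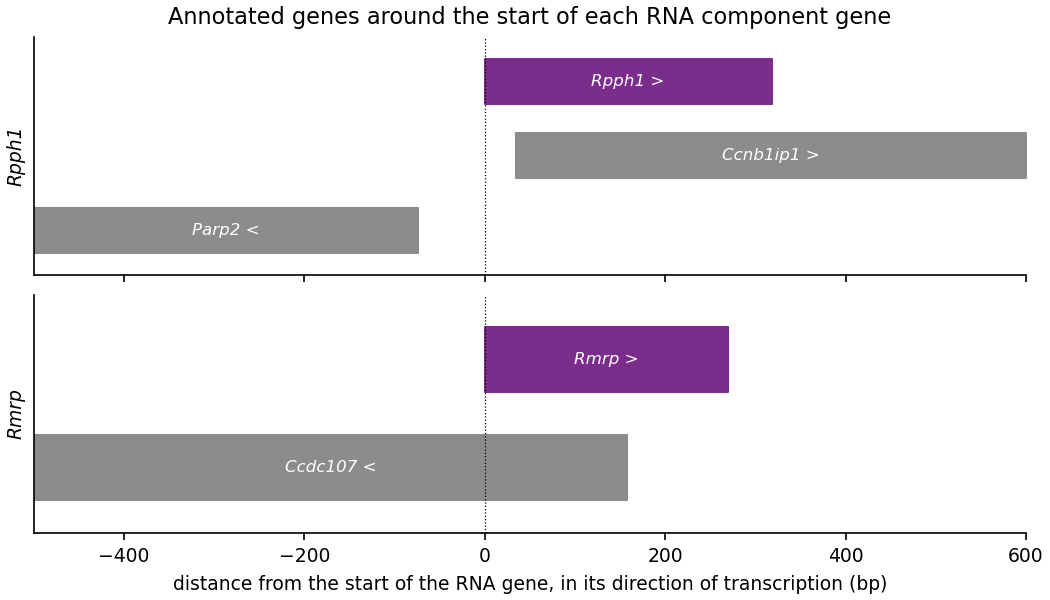
Annotated genes (GENCODE M21) around Rpph1 and Rmrp, with the distance in base pairs from the start of the RNA gene in its direction of transcription. Purple bars are the RNA genes, grey bars are other genes, > marks the same strand and < the opposite strand. Parp2 starts 73 bases upstream of Rpph1, Ccnb1ip1 overlaps it by 284 bases, and Ccdc107 overlaps Rmrp by 159 bases.

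Levels are given in CPM. The panel reads 1 amplicon per gene, so no division by gene length is needed. Amplicons differ in efficiency, however, which affects comparisons between genes. Efficiency cancels when 1 gene is compared between libraries only if it is the same in both. The labels do not state how the RNA was primed for reverse transcription, which bears on RNAs without a poly(A) tail.

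The 2 RNA components were among the most abundant targets of the tissue, and the protein subunits were of low to moderate level. Rpph1 was read at 20674 CPM in library 1 and 40320 CPM in library 2, with a mean of 30497 CPM ± 13892 (SD, n = 2). It ranked 3 in library 1 and 2 in library 2. Rmrp was read at 9086.5 CPM in library 1 and 25685 CPM in library 2, with a mean of 17386 CPM ± 11737 (SD, n = 2), and ranked 7 and 3. By mean CPM, Rpph1 stood between the collagen genes Col1a1 and Col1a2, and Rmrp between Col1a2 and the bone matrix gene Sparc. This order did not hold in each library. Col1a2 was at 27745 CPM in library 1 and 22481 CPM in library 2, and Sparc at 17146 and 11030 CPM. Rpph1 was thus below Col1a2 in library 1. Rmrp was below Sparc in library 1 and above Col1a2 in library 2. Library 2 held the higher value of each RNA, and the range of Rmrp overlapped that of Rpph1 across libraries, although Rpph1 exceeded Rmrp within each of them. Together the RNAs took 2.98% of all reads in library 1 and 6.60% in library 2.

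Among the protein subunits, Pop5, a conserved core subunit, was the highest at 46.6 CPM in library 1 and 40.7 CPM in library 2, from 264 and 643 reads. Its gene lies on chromosome 5 from 115235836 to 115245351 and its last part overlaps Rnf10 on the opposite strand by 3940 bases. Rnf10 was read at 468 and 511 CPM, so reads of the overlap, if the Pop5 amplicon lies there, cannot be assigned to a strand. Rpp14, a relative of Pop5 that pairs with it in the enzyme, was lower at 15.7 and 11.4 CPM (chromosome 14 from 8080367 to 8091834). Reads of Pop5 outnumbered those of Rpp14, a different amplicon, 2.97 to 1 in library 1 and 3.57 to 1 in library 2.

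Pop7 (also known as Rpp20) and Rpp25 form a pair that binds an arm of both RNAs. Pop7 was read at 38.5 CPM in library 1 and 28.5 CPM in library 2, and its gene lies on chromosome 5 from 137501438 to 137502518, inside the annotated span of Epo, which had 0 reads in both libraries. Rpp25 was the lowest member, at 1.41 CPM from 8 reads in library 1 and 1.20 CPM from 19 reads in library 2. The 95% exact Poisson intervals of Rpp25 were wide, from 0.610 to 2.78 CPM in library 1, and in library 2 from 0.724 to 1.88 CPM. Rpp25 is a gene of a single exon on chromosome 9 from 57504026 to 57505448. Pop7 reads outnumbered Rpp25 reads 27.2 to 1 and 23.7 to 1, a ratio between different amplicons that rests on few Rpp25 reads. Rpp25l, a close relative of Rpp25 outside the member list, was read at 7.59 CPM in library 1 and 17.3 CPM in library 2. Reads of Rpp25l exceeded those of Rpp25 5.37-fold and 14.4-fold, with the same limits.

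The remaining subunits lay between these. Pop4 (Rpp29), a subunit that both enzymes share, was at 21.5 CPM in library 1 and 30.2 CPM in library 2 (chromosome 7 from 38261996 to 38271423). Its partner Rpp21, a subunit known from RNase P, was at 27.4 and 17.3 CPM, so Pop4 was the lower of the pair in library 1 and the higher in library 2. Pop1, the largest subunit and a scaffold of both enzymes, was at 20.3 and 16.5 CPM (chromosome 15 from 34495304 to 34530648). Rpp30, present in the core beside Pop5, was at 11.3 and 14.1 CPM (chromosome 19 from 36083716 to 36104777). Rpp38, which binds a kinked RNA element, was at 8.83 and 5.19 CPM (chromosome 2 from 3328949 to 3332643). Rpp40, another subunit outside the member list, was at 5.12 and 1.46 CPM.

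**Figure D2:**
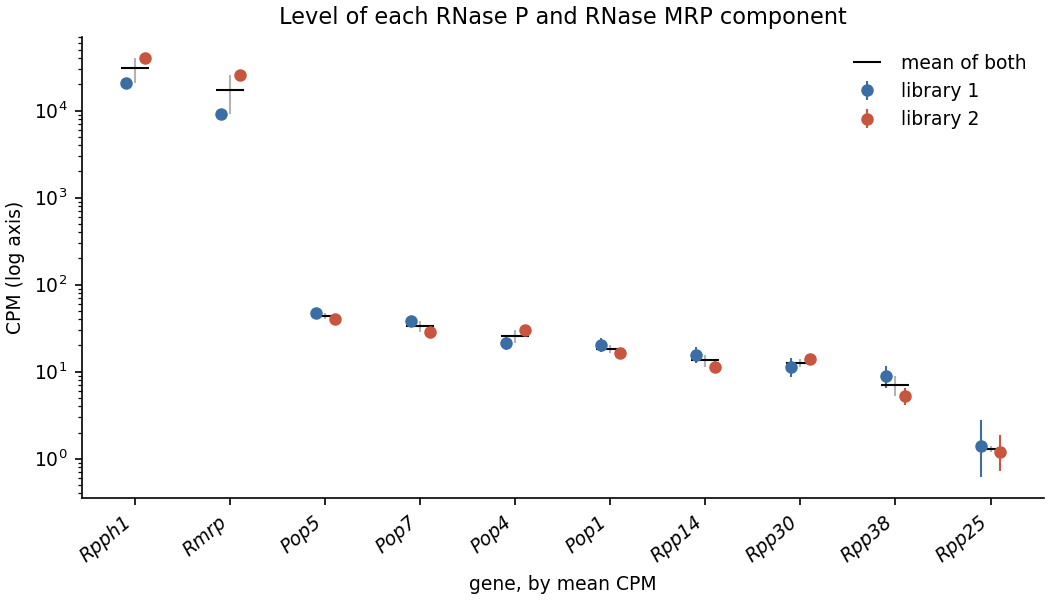
CPM of the 10 members on a log axis, with 1 point per library, bars for the exact 95% Poisson interval of the reads (hidden by the point where narrower) and a black dash for the mean. Rpph1 and Rmrp lie between 9086.5 and 40320 CPM, and the subunits between 1.20 and 46.6 CPM.

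By mean CPM the order was Rpph1, Rmrp, Pop5, Pop7, Pop4, Pop1, Rpp14, Rpp30, Rpp38 and Rpp25. Of the 9 pairs of neighbours in this order, 3 had overlapping values across the libraries, namely Rpph1 with Rmrp, Pop7 with Pop4, and Rpp14 with Rpp30. The other 6 did not overlap, though several gaps were small, as between 40.7 CPM for the lower value of Pop5 and 38.5 CPM for the higher value of Pop7. The median over the 8 subunits was 18.0 CPM in library 1 against 15.3 CPM in library 2, beside a median of mean CPM of 3.29 over all targets and 36.5 over targets averaging 10 CPM or more. The ratio of Rpph1 to the median subunit was 1148 in library 1 and 2638 in library 2. For Rmrp it was 505 and 1681. Even the lower RNA exceeded the highest subunit 195-fold in library 1 and 631-fold in library 2. These ratios compare reads of different amplicons and do not give molecules of RNA per molecule of protein message.

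The libraries were then compared gene by gene, on reads recovered from the CPM values, with an exact two-sided binomial test adjusted by Benjamini and Hochberg over all 23930 targets at a threshold of 0.05. Library 1 held 5663344 reads and library 2 held 15802610. The test covers counting error of 2 libraries only, and nothing in the labels says whether these came from separate pups, so the spread between them may be technical. It called 37.0% of all targets, 17.1% higher in library 1 and 20.0% higher in library 2, and 69.5% of the 9192 targets averaging 10 CPM or more. Of the 10 members 6 were called, 3 in each direction. Members averaging 10 CPM or more numbered 8, of which 5 were called. These included Rpph1 and Rmrp, which were chosen for their level, and 97.4% of targets averaging 1000 CPM or more were called. Of the 6 subunits averaging 10 CPM or more, 3 were called, beside 69.5% of targets at that level. When a difference of at least 1.5-fold was also asked, 3 members (Rpph1, Rmrp and Rpp38) and 25.7% of all targets remained.

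Both RNA components were higher in library 2. Rpph1 was 1.95-fold higher (exact 95% interval 1.94 to 1.96), a difference of 0.96 on the scale of log2(CPM + 1), where 1 CPM is added to each value. Rmrp was 2.83-fold higher (2.80 to 2.85), a difference of 1.5. Their adjusted p-values were too small to be stored as a number. At this depth the counting error is small against the spread of other genes. Among the 76 targets averaging 1000 CPM or more, the central 95% of library differences ran from -1.91 to 1.37 on that scale, and 97.4% were called. Rpph1 lay inside this range and was placed 8 from the top toward library 2. Rmrp was placed 2, behind the cartilage collagen gene Col2a1 (2.35). The range was taken over all 76 targets, Rpph1 and Rmrp included, so the targets placed 1 and 2 lie above it by construction. Since Rmrp differed more than Rpph1, the ratio of Rpph1 to Rmrp was 2.28 in library 1 and 1.57 in library 2. An amplicon efficiency that is the same in both libraries cancels in this shift, but whether it was the same is not known. The shift was 1.45-fold between the libraries and was not tested.

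Of the 8 protein subunits, 3 were called higher in library 1, 1 higher in library 2 and 4 were not called. Of all targets, 17.1% were called higher in library 1 and 20.0% higher in library 2. The value was lower in library 2 for 6 of the subunits, and higher there for Pop4 and Rpp30, as for the RNAs. Their median difference was -0.24 on the log2 scale, beside 0.00 over all targets and 0.05 over targets averaging 10 CPM or more. Pop7 was 1.35-fold higher in library 1 (adjusted p = 0.00142, exact binomial test) and Rpp38 1.70-fold higher there (adjusted p = 0.0126, exact binomial test). Rpp14 was 1.38-fold higher in library 1 (adjusted p = 0.0426, exact binomial test). That call was lost when the library totals were taken without the 10 highest targets (adjusted p = 0.0603, exact binomial test). Pop4 was higher in library 2 by 1.40-fold (adjusted p = 0.00255, exact binomial test). Pop5, Pop1, Rpp30 and Rpp25 differed by 0.87-, 0.81-, 1.25- and 0.85-fold from library 1 to library 2 and were not called. For Rpp25 the interval ran from 0.356 to 2.25, so a difference of the size seen in Rpph1 was not excluded at this depth. All 8 subunits lay inside the central 95% of targets of like level, which ran from -1.48 to 2.35 for means of 1 to 10 CPM and from -1.41 to 1.76 for 10 to 50 CPM.

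**Figure D3:**
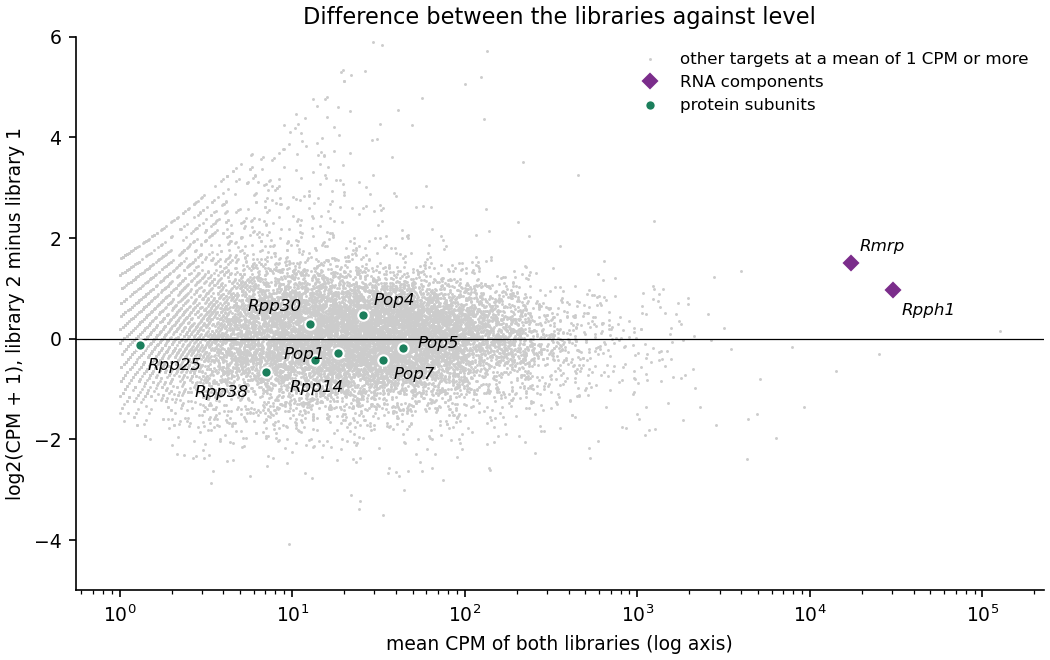
Library 2 minus library 1 in log2(CPM + 1) against the mean CPM (log axis) for targets at a mean of 1 CPM or more, with 10 of 14097 outside the axis. Purple diamonds are the RNA components, at 0.96 and 1.5, and green circles the 8 subunits, from -0.67 (Rpp38) to 0.47 (Pop4).

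Summed over the members, the RNAs went from 29760 to 66005 CPM between library 1 and library 2, and the subunits from 164 to 148 CPM. The ratio of Rpph1 to the median subunit was therefore 2.30-fold larger in library 2, and that of Rmrp 3.33-fold larger. Markers of cell types also differed. All 10 chondrocyte markers were higher in library 2, with sums of 1586 CPM in library 1 against 4748 CPM in library 2, as were all 10 olfactory neuron markers (121 and 611 CPM). Of 10 skeletal muscle markers, 9 were higher in library 1 and Ryr1 was not called (45077 and 14395 CPM in sum), and no gene of these 3 lists was at 0 in both libraries. Of 9 osteoblast markers measured, 7 had the higher CPM in library 2, while Sparc and Col1a2 had it in library 1 (167055 and 172515 CPM in sum, mostly Col1a1). Of 7 suture progenitor markers, 5 were higher in library 2, Twist1 was higher in library 1 and Ctsk was not called (268 and 359 CPM in sum, median difference 0.87). Of 7 proliferation markers, 5 were higher in library 1 and Top2a and Cdk1 were not called (521 and 363 CPM in sum, median difference -0.53). The libraries also differed in depth, and the labels give no measure of RNA quality. The part of tissue make-up, depth or RNA quality in the library difference of Rpph1 and Rmrp was not tested.

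For each RNA the targets averaging 1000 CPM or more with the closest library difference were listed, a likeness that rests on 2 libraries only. For Rpph1 these were Scarna13, a small RNA of Cajal bodies (0.99), the growth factor binding protein gene Igfbp5 (0.99) and the fibronectin gene Fn1 (0.92). For Rmrp they were Malat1, a long nuclear RNA (1.35), the bone matrix gene Spp1 (1.23) and the small nucleolar RNA Snord15a (1.05). Their gaps to Rmrp were 0.15, 0.27 and 0.45, wider than the gaps of 0.02 to 0.05 for Rpph1. Snord15a lay nearer to Rpph1 than to Rmrp.

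Genes that act beside the complexes were read from lists that were chosen with earlier results of these data known. Of the 3 subunits outside the member list, Rpp21 was higher in library 1 by 1.58-fold (adjusted p = 3.92e-05, exact binomial test) and Rpp40 by 3.52-fold (adjusted p = 4.46e-05, exact binomial test). Rpp25l was higher in library 2 by 2.28-fold (adjusted p = 2.83e-07, exact binomial test). With these added, the 11 protein genes still lay in both directions. Mitochondria use a separate RNase P made of protein only. Its dehydrogenase subunit Hsd17b10 was at 111 CPM in library 1 and 76.6 CPM in library 2, its nuclease subunit Prorp at 18.2 and 7.97 CPM and its methyltransferase subunit Trmt10c at 3.89 and 4.81 CPM. Of these 3, Hsd17b10 and Prorp were called higher in library 1 and Trmt10c was not called.

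Of 14 other genes of transfer RNA maturation, 4 had a higher CPM in library 1 by the test, 1 in library 2, and 9 were not called. The highest were Rtcb, the transfer RNA ligase (104 CPM on average), Tsen34, a splicing endonuclease subunit (97.4 CPM), and Elac2, which trims the tail of the precursor (64.8 CPM). Of 13 RNA polymerase III subunits, 5 were higher in library 1, 3 higher in library 2 and 5 not called, led by Polr1c, Polr1d (66.8 and 53.7 CPM, both shared with RNA polymerase I) and Polr3k (42.8 CPM). Of 11 factors that act at polymerase III promoters upstream of the gene, the kind that Rpph1 and Rmrp carry, 2 were higher in library 1, 3 higher in library 2 and 6 not called. Snapc3, a subunit of the activating complex, averaged 46.2 CPM, the polymerase III repressor gene Maf1 39.1 CPM and Tbp 30.8 CPM. The median difference was -0.22 for the polymerase subunits and 0.18 for the promoter factors, beside 0.96 for Rpph1 and 1.5 for Rmrp.

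Ribosomal RNA processing, the pathway of RNase MRP, was read through 16 of 18 listed genes. Of these, 9 were higher in library 1, 4 higher in library 2 and 3 not called, with a median difference of -0.26. Nop10 averaged 157 CPM, Nop56 135 CPM and Pes1 113 CPM. Nepro, a nucleolar factor linked to RNase MRP, was low at 4.24 and 2.91 CPM. Of 11 listed short structured RNAs 2 were measured. Terc, the RNA of telomerase, was at 15.2 and 17.8 CPM and the vault RNA Vaultrc5 at 3.71 and 3.92 CPM. Neither was called (adjusted p = 0.409 and 1 in the exact binomial test), and both were far below Rpph1 and Rmrp.

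Of 8 long noncoding RNAs measured, 3 were higher in library 1, 2 higher in library 2 and 3 not called. H19, an imprinted RNA of embryonic tissue, was at 6564 CPM in library 1 and 3774 CPM in library 2, and the imprinted RNA Meg3 at 1717 and 1186 CPM. Malat1 was at 2258 and 5755 CPM. Malat1 was thus higher in library 2, as Rpph1 and Rmrp were, while H19 and Meg3 were higher in library 1.

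**Figure D4:**
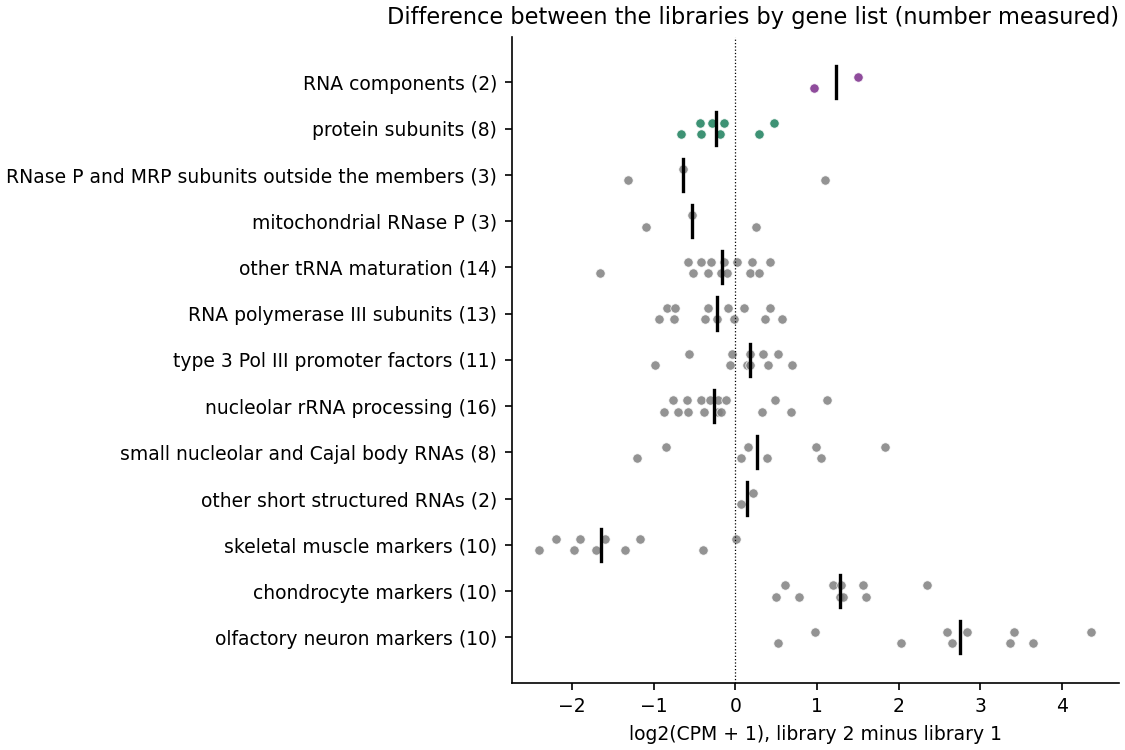
Library 2 minus library 1 in log2(CPM + 1) for each gene of 13 lists, with 1 point per gene, a black bar for the median and the number measured in brackets. The RNA components lie at 0.96 and 1.5, the protein subunits have a median of -0.24, and the muscle, chondrocyte and olfactory markers have medians of -1.65, 1.29 and 2.75.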

How the data were processed

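Total RNA of 2 cranial suture libraries was read with the Ion AmpliSeq mouse transcriptome panel, per the labels' protocols, with mm10 as the build per the submitters' processing notes. No label names the aligner or counter. The authors deposited CPM, the reads of each of 23930 amplicon targets scaled to 1000000 per library. In each library 100% of nonzero values divided by a fixed step (0.177 and 0.0633 CPM) gave whole reads to within 0.01, so reads were recovered. A date stood in place of 27 symbols, which were restored from target names.

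The libraries were compared with an exact two-sided binomial test (scipy 1.17.1) with Benjamini-Hochberg adjustment over all targets. With 1 group of 2 libraries, no model with residual spread could be fitted. The test was checked on simulated reads for 23930 targets, where it called 100% of 100 targets changed 2-fold, 71% of 100 changed 1.5-fold and 0.00843% of unchanged ones. The shares for changed targets depend on read level and do not extend to low members such as Rpp25, with 8 and 19 reads. The share for unchanged targets speaks to counting error alone, beside 37.0% of targets called in the real libraries. Without molecular identifiers, intervals cover counting error only, those for a count of 0 included. Transcripts were searched with BLAST 2.17.0 at an E-value of 1e-05. Of the targets, 21370 have a symbol in GENCODE M21, and older symbols were matched through RefSeq synonyms.

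The members, the gene lists, the tests and the rule for named genes were chosen with earlier results of these data known. Named were all members, all genes of the lists of further subunits and mitochondrial RNase P, the 3 highest of other lists, nearest genes and genes of like difference. Rank neighbours of the subunits, the nearest genes beyond the overlapping ones, and the 3 highest genes of the marker lists are mostly not reported by name. Rprl1, Rprl2, Rnf10, Epo, Ryr1, Ctsk, Top2a, Cdk1 and Nepro were named after their values were seen.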

Additional observations from a re-analysis of the deposited data

How the results depend on the processing

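The differences of the 10 members between the libraries were recomputed with pseudocounts of 0.5 and 5 CPM, with scaling by the median ratio and with library totals taken without the 10 highest targets. None of the 40 recomputed values changed direction. The pseudocount does not enter the test, so only the 20 values from the scalings could cross the threshold, and 19 stayed on their side of it. The exception was Rpp14, not called without the 10 highest targets (adjusted p = 0.0603, exact binomial test). The median ratio moved the members' differences by -0.05 to -0.03 on the log2 scale, and the totals without the 10 highest targets moved them by 0.0023 to 0.03. The number of members called higher in library 1 was 3, beside 17.1% of all targets. It was 2 with totals without the 10 highest targets, and 2 over targets at a mean of 10 CPM or more. When a difference of at least 1.5-fold was also asked, it was 1. The number called higher in library 2 was 3, beside 20.0% of all targets, and 2 with that demand. With the same demand, 25.7% of all targets were called in either direction. From the means of both libraries, Rpph1 exceeded the median subunit 1910-fold. It exceeded the mean subunit 1564-fold, and the ratio ranged from 1148 to 2638 when either library was left out. For Rmrp the ratio was 1089, with a range of 505 to 1681. With Rpp21, Rpp40 and Rpp25l added to the subunits these ratios were 2250 and 1283, without Rpp25 1659 and 946, and over subunits at a mean of 10 CPM or more 1378 and 785. The ratio of Rpph1 to Rmrp, 1.75 from the means, ranged from 1.57 to 2.28 when either library was left out. Leaving out a library leaves no difference between libraries to test. No paired analysis was possible because the libraries form 1 group. Depth limits Rpp25, with 8 and 19 reads, and the measured Rpph1 copies, with 7 reads or fewer per library.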

Other observations

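The panel also held 8 targets named as small nucleolar or Cajal body RNAs, short RNAs of which many, but not all, guide chemical changes of other RNAs in the nucleus. This list was chosen after its values were seen, so it is described without a test. Scarna13 was read at 839 CPM in library 1 and 1662 CPM in library 2, Snord15a at 808 and 1671 CPM and Snora16a at 156 and 561 CPM. These 3 were higher in library 2 by 1.98-, 2.07- and 3.59-fold, beside 1.95-fold for Rpph1 and 2.83-fold for Rmrp. Snora23, at 682 and 716 CPM, Scarna6, at 153 and 171 CPM, and Snord17, at 144 and 189 CPM, differed by 1.05-, 1.12- and 1.31-fold. Snora62, at 26.1 and 14.05 CPM, and Snord118, at 47.5 and 20.0 CPM, were lower in library 2. The 8 therefore did not differ in a single direction, and their median difference was 0.27 on the log2 scale. Some of these RNAs lie in introns of other genes, and the labels do not give the position of the amplicons.

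Rpph1 and Rmrp together took 3.62 percentage points more of the reads in library 2 than in library 1. The 10 skeletal muscle markers took 4.51% of reads in library 1 and 1.44% in library 2, and Col1a1 took 11.9% and 13.3%.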
